A study of Mus musculus with 6 samples.

Results

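The genes of MHC class I antigen presentation were followed in RNA-sequencing of the mouse cochlea at 2 ages. The members are 10 genes chosen by name: the heavy chain genes H2-K1, H2-D1, H2-Q4, H2-Q6, H2-Q7 and H2-T23, the light chain gene B2m, and Tap1, Tap2 and Tapbp. All 10 were found among the 25419 genes of the table and all 10 passed the filter on low values, as did 19465 genes in total. The young group was C57BL/6 mice aged 1 month and the old group was C57BL/6 mice aged 12 months, a strain that loses hearing early, with no further treatment or allele named for either group. Each group had 3 samples, and each sample was cochlear tissue mixed from 3 mice, dissected as basilar membrane according to the labels. P-values therefore measure the spread between pools, not between single mice. Values are FPKM, fragment numbers scaled to transcript length and library depth, summed over the transcripts of a gene.

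MHC class I molecules show peptides from inside a cell to CD8 T cells and natural killer cells. Peptides are cut by the proteasome, carried into the endoplasmic reticulum by the transporter TAP, and loaded with the help of tapasin onto a heavy chain that is bound to beta-2-microglobulin. Almost all nucleated cells make class I molecules at some level, and interferons and the transactivator Nlrc5 are known to raise the transcription of these genes.

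On GRCm38, B2m lies on chromosome 2 from 122147686 to 122153083 on the plus strand. The other 9 members lie on chromosome 17, in the H2 complex. Tapbp is at 33915899 to 33929292 on the plus strand, and H2-K1 is at 33996017 to 34000347 on the minus strand. Tap1 is at 34187553 to 34197225 and Tap2 at 34203527 to 34216321, on the plus strand. H2-D1 is at 35262730 to 35267499, H2-Q4 at 35379617 to 35385290, H2-Q6 at 35424850 to 35430055 and H2-Q7 at 35439155 to 35443773, on the plus strand. H2-T23 is at 36029773 to 36032855 on the minus strand.

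The promoters of these genes are shown first. Whether these sequences have a part in the difference between the ages was not tested. RefSeq promoter windows (GRCm38.p6, from 250 nt before to 50 nt after a start site) were matched for 9 of the 10 members and not for Tap2. The letters searched on either strand were GGGGATTCCC (the kappaB site of enhancer A) and AGTTTCACTTCT (the interferon element of class I genes), both read from the H2-K1 window, TTTC followed by any 2 bases and TTTC again (the core of an interferon-stimulated response element, ISRE), TGNTGAC (an X2 box) and CCAATCA (a Y box). These letters were chosen with the member sequences in view, and matches in the members did not overlap each other. Capitals mark the matches in the stretches printed here, which end before the start site and read 5′ to 3′.
B2m, chr2:122147538-122147622, plus strand: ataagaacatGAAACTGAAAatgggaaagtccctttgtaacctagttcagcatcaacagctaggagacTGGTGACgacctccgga
H2-K1, chr17:34000375-34000468, minus strand: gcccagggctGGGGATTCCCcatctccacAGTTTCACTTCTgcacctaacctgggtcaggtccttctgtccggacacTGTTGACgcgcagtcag
H2-Q4, chr17:35379452-35379578, plus strand: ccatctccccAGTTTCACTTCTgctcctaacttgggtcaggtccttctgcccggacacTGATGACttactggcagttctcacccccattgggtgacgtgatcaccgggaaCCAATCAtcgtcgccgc
H2-Q6, chr17:35424667-35424811, plus strand: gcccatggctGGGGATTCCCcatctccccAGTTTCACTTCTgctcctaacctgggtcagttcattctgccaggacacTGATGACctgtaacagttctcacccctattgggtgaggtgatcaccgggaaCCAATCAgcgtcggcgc
H2-Q7, chr17:35439012-35439154, plus strand: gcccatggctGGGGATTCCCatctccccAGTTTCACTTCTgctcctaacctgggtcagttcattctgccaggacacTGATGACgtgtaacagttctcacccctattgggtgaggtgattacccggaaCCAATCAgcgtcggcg

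The class I interferon element was present in the windows of 5 members, H2-K1, H2-D1, H2-Q4, H2-Q6 and H2-Q7, and in 10 of 27025 promoter windows with 1 window per gene (0.037%). The other windows with these letters belong to H2-Q10, Ly86, Apobec3, Olfr974 and Gm31698. The kappaB letters were present in 4 member windows, those of H2-K1, H2-D1, H2-Q6 and H2-Q7, and in 0.104% of all windows. In the window of H2-Q4 the corresponding stretch did not match. H2-K1 holds the interferon element and the kappaB letters by construction, as both were read from its window. The heavy chain genes resemble each other in sequence, so their matches are not independent of each other. B2m and H2-T23 held instead the ISRE core, which 3.49% of all windows hold. The X2 letters were found in 7 member windows and in 14.2% of all windows, and the Y letters in 7 member windows and in 8.20% of all windows. Thus 5 of the 6 heavy chain genes carried the interferon element between 155 and 81 nt before the start site, while the windows of Tap1 and Tapbp carried neither of the interferon motifs. The start sites of Tap1 and Psmb9, a subunit of the immunoproteasome, lie 226 nt apart on opposite strands. A match describes the letters only.

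**Figure D1:**
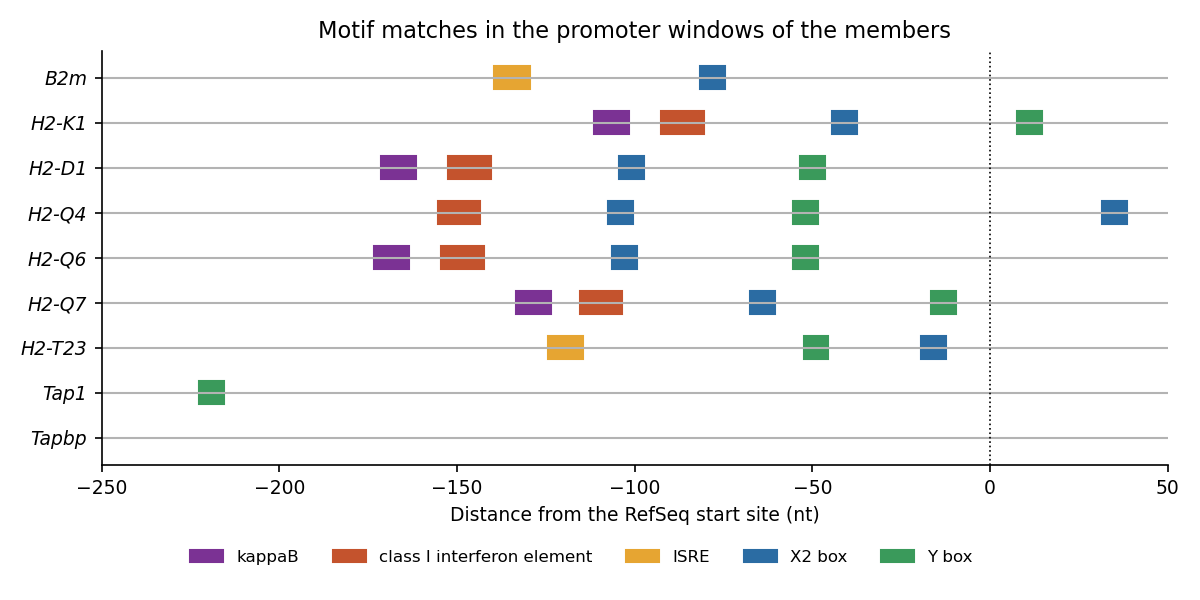
Motif matches in the promoter windows of 9 members. The horizontal axis is the distance from the RefSeq start site in nt, each line is 1 gene, and coloured boxes are matches to the kappaB site, the class I interferon element, the ISRE core, the X2 box and the Y box. The interferon element follows the kappaB site in H2-K1, H2-D1, H2-Q6 and H2-Q7, stands without it in H2-Q4, and B2m and H2-T23 hold the ISRE core and neither of these.

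Before the results, the samples were compared with each other. The steps between low FPKM values correspond to between 12380000 and 15670000 fragments per sample. Hair cell and supporting cell markers were present in every sample. Hair cell sums were 203 to 289 FPKM in young and 148 to 167 FPKM in old samples. Of the hair cell markers 6 of 10 were lower without overlap and 2 of 9 tested (Slc26a5 and Ocm) passed the threshold. Supporting cell sums were 1443 to 1628 FPKM in young and 1634 to 1770 FPKM in old samples. Of 10 supporting cell markers 2 passed as higher (Otog and Otoa) and 1 as lower (Prox1). Young replicate 1 stood apart in neutrophil markers, whose sum was 441 FPKM against 12.1 to 84.3 FPKM in the other samples, and in bone markers, with 329 FPKM against 43.5 to 166 FPKM. Its B cell marker sum was 3.66 FPKM against 0.404 to 1.49 FPKM in the other samples. Among the young samples it was also the highest for 6 of 6 erythrocyte and 11 of 15 macrophage markers. Bone sums were 78.1 to 329 FPKM in young and 43.5 to 66.3 FPKM in old samples, with 7 of 8 markers lower without overlap. Only 1 of the 8 bone markers (Ibsp) passed the threshold. For 16.1% of all genes tested, all old samples lay below all young samples. Of all genes tested, 5.65% passed the threshold as higher and 3.81% as lower. Of 15 macrophage markers 13 passed as higher in old mice, with sums of 150 to 242 FPKM in young and 788 to 874 FPKM in old samples. Of 7 tested T and NK cell markers 4 passed as higher. Sums over 10 genes were 1.51 to 2.90 FPKM in young and 10.1 to 10.5 FPKM in old samples, and Gzma and Ncr1 were listed at 0 in all samples. The part of these cells in the results was not tested, and in bulk tissue fewer cells of a type and less RNA per cell cannot be told apart.

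All 10 members were higher in old mice, and for each of them every old sample lay above every young sample. In limma on log2(FPKM + 0.1), with Benjamini-Hochberg adjustment over 19465 genes, all 10 passed the threshold of 0.05. Of all genes 5.65% passed as higher and 3.81% as lower, and for 17.6% of genes all old samples were above all young samples. The median log2 change of the members was 1.46, from 0.65 to 3.40, against a median of 0.01 over all genes. Added together, the members held 676 ± 62.7 FPKM in young and 1519 ± 301 FPKM in old samples (SD, n = 3), or 0.117% and 0.254% of the FPKM of a sample.

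The light chain B2m, which every class I molecule needs to reach the cell surface, was the most abundant member at either age. It was at 385, 315 and 351 FPKM in young replicates 1, 2 and 3, whereas old replicates 1, 2 and 3 had 600, 809 and 628 FPKM. The lowest old value was thus well above the highest young value. The log2 change was 0.95 (SE 0.13, limma adjusted p = 0.0130), a 1.94-fold difference of the means. The deposited table holds 1 transcript of B2m.

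The classical heavy chains H2-K1 and H2-D1, which present peptides to CD8 T cells, had larger log2 changes than B2m. H2-K1 was at 106, 90.9 and 106 FPKM in the young pools against 247, 373 and 267 FPKM in the old pools. The young values lay close together and the old values were all far above them. The log2 change was 1.53 (SE 0.15, limma adjusted p = 0.00847). H2-D1 was at 76.7, 64.6 and 67.6 FPKM in the young pools against 160, 224 and 168 FPKM in the old pools. Its log2 change was 1.39 (SE 0.13, limma adjusted p = 0.00812). In both genes old replicate 2 was the highest sample and the other old samples were near each other.

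Among the nonclassical heavy chains, H2-T23 encodes Qa-1, which presents leader peptides of other class I chains to receptors of natural killer cells. It was at 76.2, 66.3 and 81.5 FPKM in the young pools against 155, 244 and 180 FPKM in the old pools, and the log2 change was 1.35 (SE 0.16, limma adjusted p = 0.0115). In level it was as abundant as H2-D1, with means of 74.7 ± 7.75 and 69.6 ± 6.30 FPKM in young mice (SD, n = 3), which differ by less than their spread. H2-Q4, a Qa region gene, was at 9.65, 6.90 and 9.22 FPKM in the young pools against 23.6, 37.8 and 26.9 FPKM in the old pools. Its log2 change was 1.75 (SE 0.20, limma adjusted p = 0.0111), with no overlap between the groups.

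H2-Q6 and H2-Q7, genes of the Qa-2 antigen group, had the lowest levels and the largest changes of the members. H2-Q6 was at 1.17, 0.562 and 0.491 FPKM in the young samples, estimated from 28, 14 and 11 fragments. In the old samples it was at 4.47, 12.5 and 5.36 FPKM, from 101, 354 and 130 fragments. The log2 change was 3.10 (SE 0.45, limma adjusted p = 0.0149). H2-Q7 was at 0.135, 0.566 and 0.475 FPKM in the young samples, from only 2.16, 7.12 and 5.02 estimated fragments. The old samples were at 2.53, 9.73 and 3.97 FPKM, from 29.7, 151 and 54.3 fragments, and the log2 change was 3.40 (SE 0.57, limma adjusted p = 0.0210). The young levels of H2-Q7 rest on few fragments, so that the size of its change is less certain than that of the other heavy chains. With a pseudocount of 1 in place of 0.1 the log2 changes were 2.18 for H2-Q6 and 2.06 for H2-Q7.

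The heavy chain genes resemble each other in sequence, and fragments that match several of them could be divided among them by the authors' software. Of the windows of 150 nt, the length of a read, in the most abundant H2-Q6 transcript, 5.99% also occur in transcripts of H2-Q7. For H2-Q7 1.73% also occur in H2-Q5, for H2-D1 1.79% in H2-Q1, and for H2-T23 0.831% in Gm7030. H2-K1, H2-Q4, B2m, Tap1, Tap2 and Tapbp shared none. The windows count exact matches only, and values of H2-Q6 and H2-Q7 are uncertain as single genes. Their sum, which depends on the division of fragments between them only through their lengths, was 1.13 ± 0.171 FPKM in young and 12.9 ± 8.20 FPKM in old samples (SD, n = 3). It lay between 0.966 and 1.31 FPKM in the young samples and between 7.01 and 22.2 FPKM in the old samples.

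The transport and loading genes changed as well. Tap1 and Tap2 encode the subunits of the peptide transporter. Tap1 was at 6.94, 4.50 and 5.91 FPKM in the young pools against 12.8, 25.7 and 14.1 FPKM in the old pools, and its log2 change was 1.53 (SE 0.28, limma adjusted p = 0.0242). Tap2 was at 12.6, 11.6 and 11.8 FPKM in the young pools against 21.1, 27.2 and 20.7 FPKM in the old pools, and its log2 change was 0.92 (SE 0.12, limma adjusted p = 0.0129). The level of Tap1 was thus 0.480 ± 0.0833 of that of Tap2 in young and 0.745 ± 0.176 in old samples (SD, n = 3). Tapbp encodes tapasin, which bridges the transporter and the empty class I molecule. It was at 55.1, 46.6 and 56.9 FPKM in the young pools against 70.4, 97.5 and 83.1 FPKM in the old pools. Its log2 change of 0.65 (SE 0.13, limma adjusted p = 0.0288) was the smallest of the members.

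**Figure D2:**
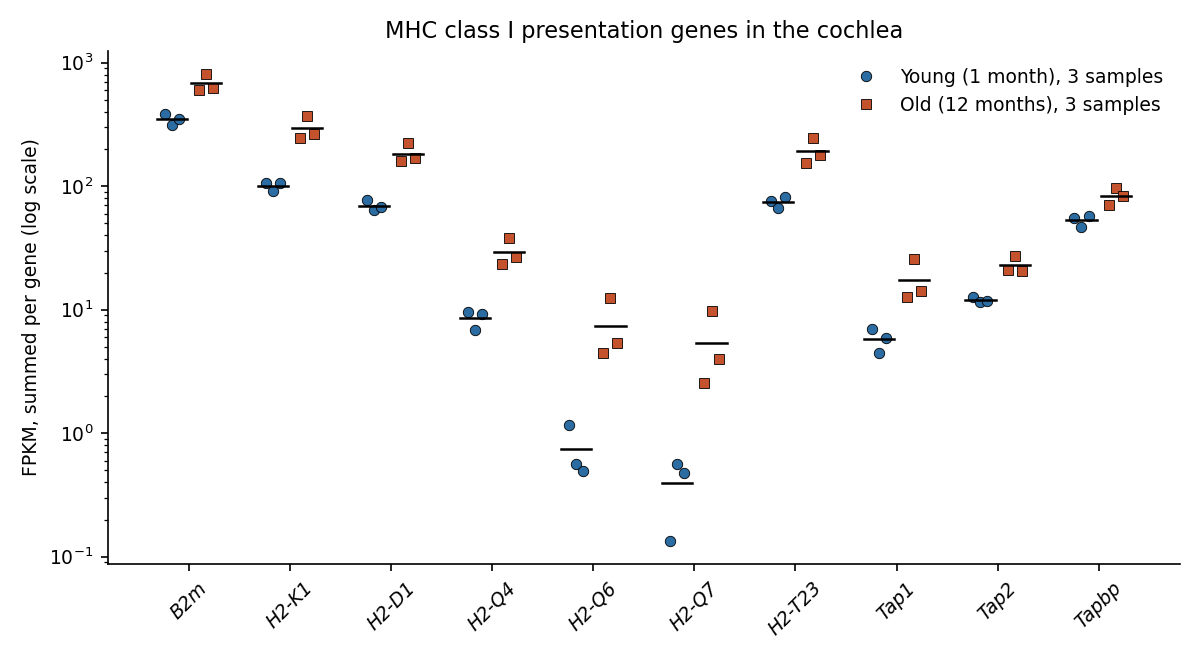
Level of each member in each sample. The vertical axis is the summed FPKM of a gene on a log scale, blue circles are the 3 young and orange squares the 3 old samples, and black lines are group means. In every gene the old samples lie above the young samples, and the distance is smallest for Tapbp and largest for H2-Q6 and H2-Q7.

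The calls of 4 members depended on single samples. Without old replicate 2, 6 members passed (H2-Q6, H2-Q7, Tap1 and Tapbp did not), where 0.237% of all genes passed as higher. Without young replicate 2 the same 4 members did not pass, and without old replicate 3 H2-Q7, Tap1 and Tapbp did not. Without young replicate 1, the sample with high neutrophil and bone markers, 9 members passed, all but Tapbp, and the median log2 change was 1.51. All 10 passed when young replicate 3 or old replicate 1 was removed. With any sample left out, every log2 change stayed above 0, and the median was lowest without old replicate 2, at 1.23.

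Next, the members were compared with each other within each sample. The 6 heavy chains together held 255 ± 22 FPKM in young and 715 ± 163 FPKM in old samples (SD, n = 3). Their ratio to B2m was 0.702, 0.730 and 0.756 in young replicates 1, 2 and 3 and 0.989, 1.11 and 1.04 in old replicates 1, 2 and 3. The groups did not overlap, and the log2 ratio was higher by 0.52 in old mice (two-sided exact permutation p = 0.1, which no design of 3 against 3 samples can go below, adjusted p = 0.117 over 7 comparisons). The exact test cannot pass the threshold in this design. From the 2 classical chains alone the difference of the log2 ratio was 0.53.

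The abundant genes held similar shares of the heavy chain FPKM at either age. H2-K1 made up 39.6 ± 0.266% of the heavy chain FPKM in young and 41.4 ± 0.336% in old samples, and H2-T23 made up 29.3 ± 1.33% and 27.0 ± 0.753% (SD, n = 3). H2-D1 made up 27.3 ± 1.59% and 25.9 ± 1.10%, with overlapping groups (exact permutation test, two-sided, p = 0.3, adjusted p = 0.3). The Qa genes H2-Q4, H2-Q6 and H2-Q7 together held 3.8 ± 0.282% in young and 5.79 ± 0.779% in old samples, with 3.50 to 4.05% in the young and 5.15 to 6.66% in the old samples. H2-Q7 alone was at 0.158 ± 0.0998% in young and 0.705 ± 0.337% in old samples. For each heavy chain other than H2-D1 the shares of the groups did not overlap (exact permutation test, two-sided, p = 0.1, adjusted p = 0.117 for each).

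**Figure D3:**
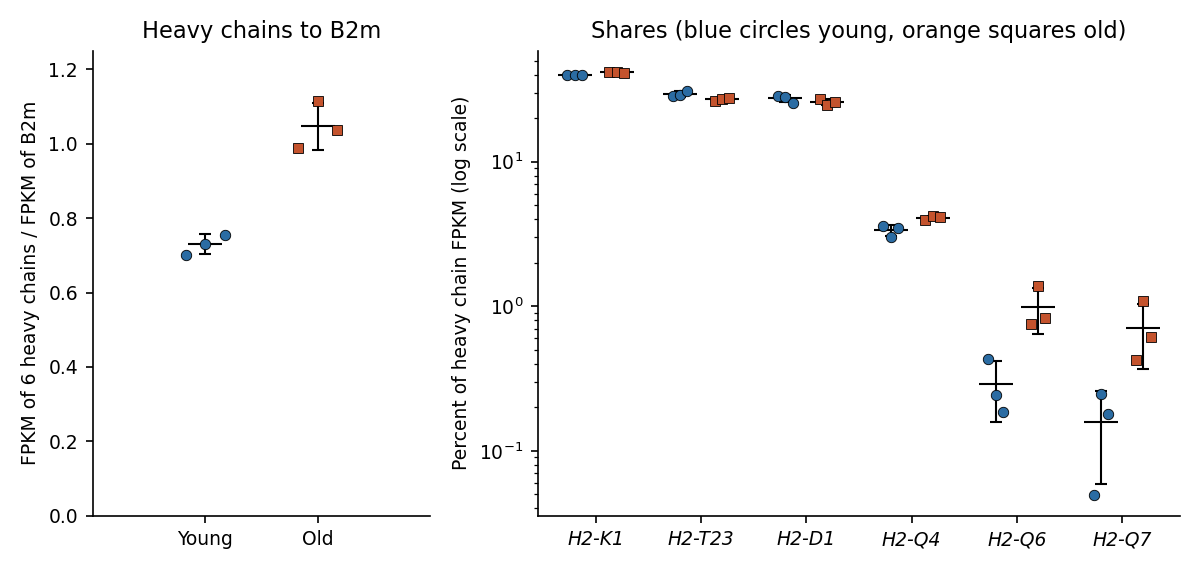
Left, FPKM of the 6 heavy chain genes divided by FPKM of B2m in each sample, on an axis from 0. Right, percent of the heavy chain FPKM held by each gene, on a log scale, with blue circles for young and orange squares for old samples and with mean and SD in black. The ratio is at most 0.756 in young and at least 0.989 in old samples. As fold differences, the shares of H2-Q6 and H2-Q7 differ more between the ages than those of H2-K1, H2-D1 and H2-T23. In percent of the heavy chain FPKM they differ less.

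The table holds 24 transcripts of the members, of which 18 passed the filter. In a fit over all 38764 transcripts, 7 member transcripts passed as higher, 0 as lower, and 16 of the 18 had a positive change. Of all transcripts 0.549% passed as higher. Those that passed are the transcripts that hold most of the FPKM of B2m, H2-K1, H2-D1, H2-Q4, H2-T23 and Tap2, and a further transcript of H2-K1. For H2-K1, ENSMUST00000025181 with 8 exons held 87.0% of the gene's FPKM and went from 86.2 to 259 FPKM (log2 change 1.57, SE 0.16, limma adjusted p = 0.0315). ENSMUST00000172912 of the same gene went from 13.0 to 33.0 FPKM (log2 change 1.32, SE 0.16, limma adjusted p = 0.0364). The main transcripts of H2-Q6, H2-Q7, Tap1 and Tapbp had log2 changes of 3.10, 3.23, 1.59 and 0.65 with limma adjusted p of 0.0529, 0.120, 0.0702 and 0.0791. The transcript calls rest on all samples: 4 passed without young replicate 3 and 0 without any other sample.

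The other genes of the pathway were taken from 4 lists, in which 63 of 82 listed genes could be tested. Of these 18 were higher in old mice (28.6%, against 5.65% of all genes), 0 were lower and 45 did not pass. Without old replicate 2, 1 gene passed as higher, where 0.237% of all genes did. Without young replicate 2 or old replicate 3, 3 genes passed, where 1.24% and 1.35% of all genes did. Without young replicate 1, 9 genes passed, where 2.9% of all genes did. Without old replicate 1, 10 genes passed, and without young replicate 3, 14 genes, where 1.5% and 4.87% of all genes did. Psmb8 was the gene that passed without old replicate 2.

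Of 12 further class I and class I-like heavy chain genes tested, 7 were higher and 5 did not pass, with a median log2 change of 0.70. H2-T22, a ligand of gamma delta T cells, was at 26.9, 25 and 27.1 FPKM in the young pools against 41.3, 76.6 and 50.3 FPKM in the old pools (log2 change 1.04, SE 0.20, limma adjusted p = 0.0274). H2-M3, which presents formylated peptides, was at 4.91, 4.39 and 3.42 FPKM in the young against 9.45, 9.81 and 9.61 FPKM in the old pools (log2 change 1.18, SE 0.15, limma adjusted p = 0.0122). H2-Q2 and H2-T24 were higher by 1.64 and 1.83 on the log2 scale. Class I-like genes with other ligands were also among the 7. Mr1, which presents microbial vitamin B metabolites, was higher by 0.54. Hfe, a regulator of iron uptake, went from 15.8 to 24.6 FPKM, and Azgp1, a lipid-mobilising glycoprotein, from 1.8 to 4.25 FPKM. Fcgrt, the heavy chain of the neonatal Fc receptor and a partner of B2m, was the most abundant of the list, at 100 ± 5.15 FPKM in young and 104 ± 7.09 FPKM in old samples (SD, n = 3, log2 change 0.06, SE 0.07, limma adjusted p = 0.670). Its groups overlapped.

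Of 19 tested genes of peptide supply and loading, 6 were higher, 0 were lower and 13 did not pass, with a median log2 change of 0.23. The immunoproteasome replaces catalytic subunits of the standard proteasome with Psmb8, Psmb9 and Psmb10. Psmb8 was at 6.60, 4.55 and 4.44 FPKM in the young pools against 16.1, 42.5 and 19.99 FPKM in the old pools (log2 change 2.20, SE 0.35, limma adjusted p = 0.0187). Psmb9, the neighbour of Tap1, went from 1.86 ± 0.147 to 6.31 ± 2.40 FPKM (SD, n = 3), a log2 change of 1.65 beside the 1.53 of Tap1. Psmb10, which lies outside the H2 complex on chromosome 8, was at 17.2, 11.01 and 13.6 FPKM in the young against 16.9, 38.6 and 25.2 FPKM in the old pools. The lowest old value of Psmb10 was below the highest young value, and it did not pass (log2 change 0.89, SE 0.29, limma adjusted p = 0.102). The proteasome activator genes Psme1 and Psme2 were higher by 0.82 and 0.68, the peptide-trimming Erap1 by 0.45 and Bcap31, an export factor of the endoplasmic reticulum, by 0.28 on the log2 scale. The general chaperones Canx, Hspa5 and Calr, the most abundant genes of the list, had log2 changes of -0.12, -0.22 and 0.07 (limma adjusted p of 0.240, 0.0865 and 0.639).

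Of 24 tested regulators of class I transcription, 3 were higher, 0 were lower and 21 did not pass, with a median log2 change of 0.13. Nlrc5, the transactivator that acts at the X and Y box region of class I promoters, was at 0.829, 0.198 and 0.338 FPKM in the young pools against 1.36, 3.44 and 2.59 FPKM in the old pools. The groups did not overlap, and the log2 change was 2.28 (SE 0.51, limma adjusted p = 0.0369). With a pseudocount of 1 it was 1.23, and of the 6 fits with a sample left out Nlrc5 passed only without young replicate 1 (limma adjusted p = 0.0357, up to 0.127 without old replicate 2). It also did not pass with no filter, with no trend, with the replicate block or with the most abundant transcript (limma adjusted p from 0.0600 to 0.0866). Irf9, the DNA-binding part of the complex that carries type I interferon signals, went from 13.1 ± 1.04 to 28.5 ± 8.17 FPKM (SD, n = 3, log2 change 1.08, limma adjusted p = 0.0260), and the interferon gamma receptor gene Ifngr1 was higher by 0.35 on the log2 scale. Of the fits with a sample left out, Irf9 passed only without young replicate 3 or old replicate 1, and Ifngr1 passed in none. With no trend and with the replicate block neither passed (limma adjusted p of 0.0780 and 0.0529 for Irf9, 0.0927 and 0.0737 for Ifngr1). Irf1, the interferon gamma induced factor of class I genes, differed by 0.38 on the log2 scale (SE 0.15, limma adjusted p = 0.158). The 3 most abundant genes of the list, Ifnar2, Jak1 and Irf2, had log2 changes of 0.31, -0.07 and 0.18 and did not pass.

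The last list holds receptors of class I molecules, related immune receptors, the T cell gene Cd3e and interferon genes, all at low levels. Of 13 listed genes 8 could be tested, of which 2 passed as higher, where 5.65% of all genes did. Klra2, of the Ly49 receptor family, was at 0.904, 0.424 and 0.212 FPKM in the young against 3.00, 3.38 and 2.06 FPKM in the old pools (log2 change 2.38, SE 0.44, limma adjusted p = 0.0254), and Lilr4b was higher by 2.84 (SE 0.59, limma adjusted p = 0.0316), from an estimated 0 to 6.67 fragments in the young samples. The change of Lilr4b was 1.10 with a pseudocount of 1, and with a pseudocount of 0.01 it was 4.22 and did not pass (limma adjusted p = 0.0753). Lilr4b also did not pass without young replicate 2 or without any of the old replicates (limma adjusted p from 0.0665 to 0.117). Klra2 rested on an estimated 15, 7 and 4 fragments in the young samples, and its change was 1.34 with a pseudocount of 1. Klra2 likewise did not pass without young replicate 2, without any of the old replicates, or with no trend (limma adjusted p = 0.0656 with no trend). Pirb, an inhibitory class I receptor, differed by 1.02 on the log2 scale (SE 0.61, limma adjusted p = 0.323). Cd8a, the coreceptor of T cells that read class I molecules, was at 0.0839, 0.0537 and 0.0596 FPKM in the young pools against 0.308, 0.331 and 0.331 FPKM in the old pools, estimated from 1.99 to 3.01 and from 11 to 14 fragments. The groups of Cd8a did not overlap and the change did not pass (log2 change 1.36, SE 0.45, limma adjusted p = 0.1004). Ifng was listed at 0.

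**Figure D4:**
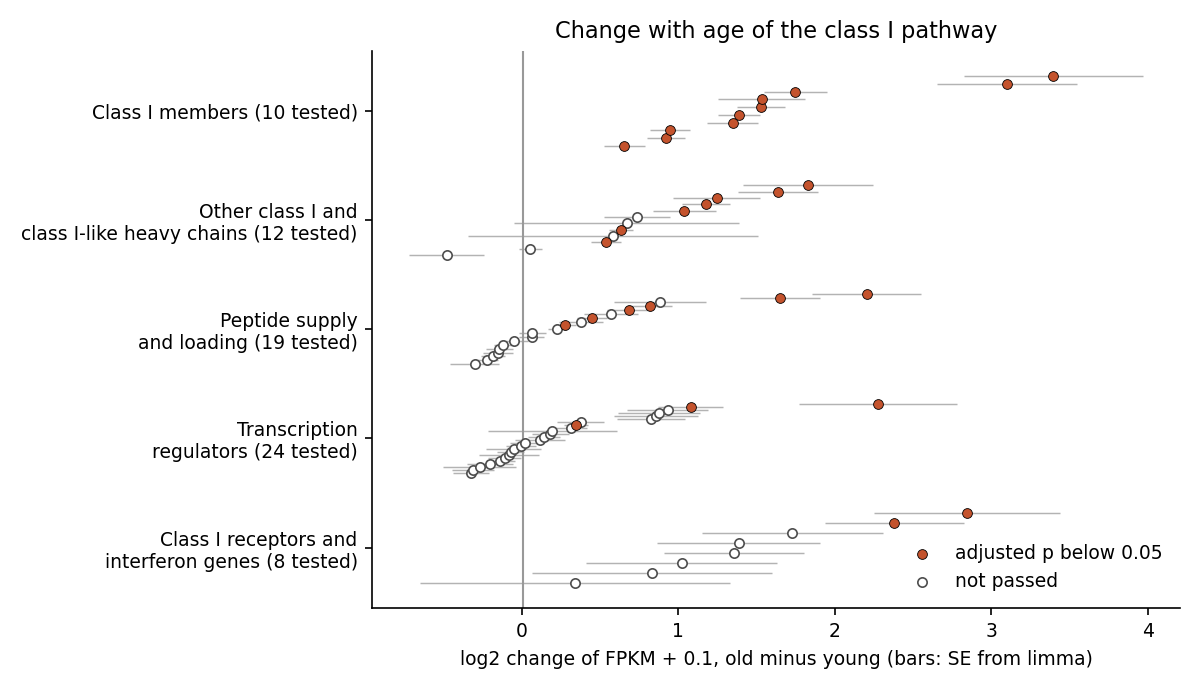
Log2 change from young to old, on log2(FPKM + 0.1), of every tested gene of the members and of the 4 other lists. Each point is 1 gene with its SE from limma, filled where the adjusted p is below 0.05, and the grey vertical line is the median of all genes, 0.01. All 10 members are filled and lie from 0.65 to 3.40, while 13 of 19 supply genes and 21 of 24 regulators are open.

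Among the old samples, old replicate 2 held the highest value of all 10 members, whereas it held the highest old value for 29.6% of all genes tested. The level in old replicate 2 divided by the mean of the other old samples was 1.45 at the median of the members, from 1.27 for Tapbp to 2.99 for H2-Q7, against a median of 0.992 over all genes. Old replicate 2 was also the highest old sample for Psmb8, Psmb9, Psmb10, Nlrc5 and Irf9. Of 15 macrophage markers 10 were likewise highest in old replicate 2 among the old samples, with a median ratio of 1.23 to the others, and 5 were highest in old replicate 1. C1qa was at 93.0, 118 and 90.8 FPKM in old replicates 1, 2 and 3, and Lyz2, the most abundant macrophage marker, was at 511, 400 and 440 FPKM. The macrophage sum, to which Lyz2 added most, was 874, 845 and 788 FPKM. Of 7 tested T and NK cell markers 3 were highest in old replicate 2 and 3 in old replicate 1. The part of these cells in the differences among old samples was not tested. Ptprc, the pan-leukocyte gene Cd45, was at 1.82 to 2.63 FPKM in the young samples, while old replicates 1, 2 and 3 had 11.3, 6.87 and 3.66 FPKM. Cd3e was at 0.626, 0.442 and 0.194 FPKM in old replicates 1, 2 and 3, and Cd8a did not vary by more than 0.308 to 0.331 FPKM. Cd79a, a B cell gene, was at 0.190 to 0.273 FPKM in the old and 0.206 to 0.515 FPKM in the young samples.

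**Figure D5:**
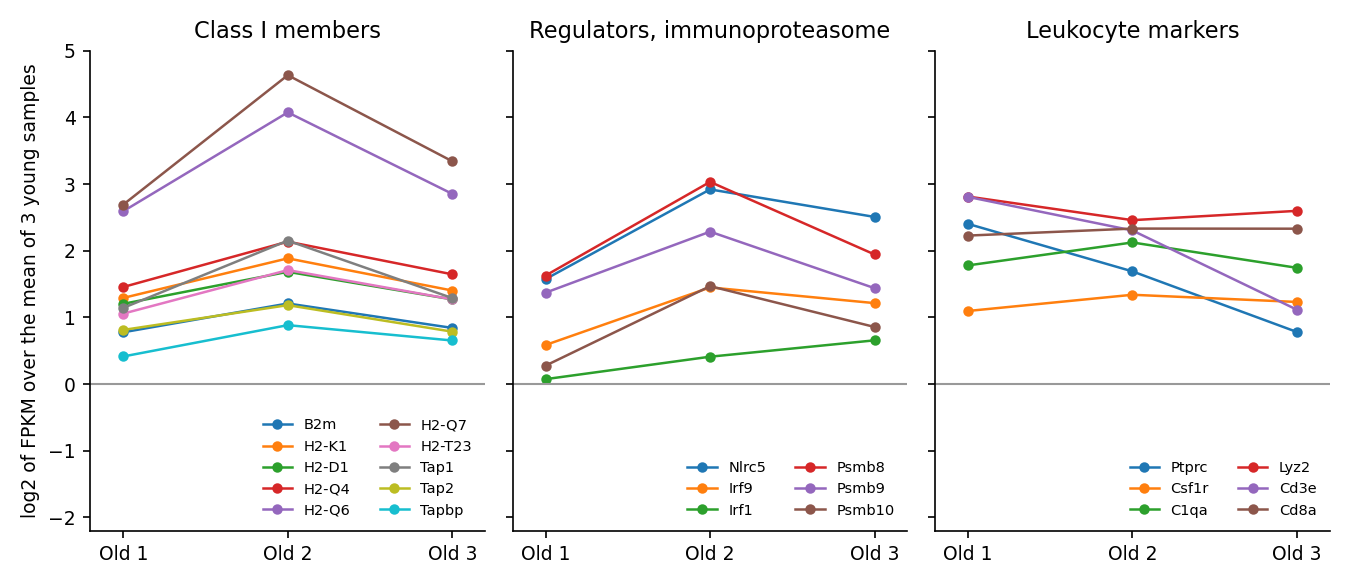
Log2 of the FPKM in each old sample over the mean of the 3 young samples, for the members, for regulators and immunoproteasome genes, and for leukocyte markers. Lines join the values of 1 gene and imply no order of the samples. All 10 members peak in old replicate 2, as do Psmb8, Psmb9, Psmb10, Nlrc5, Irf9, Csf1r and C1qa, while Irf1 is highest in old replicate 3 and Ptprc, Lyz2 and Cd3e in old replicate 1.

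The genes whose pattern over the 6 samples was most like the mean standardised pattern of the members were Gbp6, C4b, Herc6, Tlr2 and Get4, with Pearson r from 0.997 to 0.998, among 14859 genes outside all lists. This is a description over 6 samples that share the difference between the ages. Gbp6, an interferon-induced GTPase, was at 6.07, 3.74 and 5.12 FPKM in the young against 20.2, 50.6 and 23.8 FPKM in the old pools. C4b, a complement component, was at 9.61, 7.89 and 8.67 FPKM in the young against 32.3, 57.6 and 33.5 FPKM in the old pools. In both genes old replicate 2 was the highest sample, which the choice of genes by their likeness to the members favours. Get4, which acts in the insertion of membrane proteins, had this pattern with a difference of only 1.18-fold.

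C4b also lies in the stretch of chromosome 17 between Tapbp and H2-T23, from 33915899 to 36032855, a stretch chosen after values of its genes were seen. Of 121 genes tested in it 31 were higher (25.6%, against 5.65% of all genes) and 2 were lower. This count includes the 9 members that bound the stretch, all higher, and genes of the other lists. Among the 106 genes on no list 17 were higher (16%). The class II genes H2-Ab1, H2-Aa, H2-Eb1, H2-DMa and H2-DMb1, which serve the presentation of peptides to CD4 T cells, were among the higher ones, with log2 changes of 3.02, 2.96, 2.81, 1.63 and 0.86. Of the 98 that are on none of the lists and are not named H2, 12 were higher (12.2%) and 2 lower, with a median log2 change of 0.19. The higher ones include C2 and C4b of the complement system, Ier3, Ddah2 and Flot1, and the lower ones are Notch4 and Vwa7. Among the genes with the class I interferon element in their promoter, chosen by that element, Ly86 was higher by 1.22 (limma adjusted p = 0.0348), and Apobec3 and H2-Q10 did not pass (log2 changes of 0.57 and 0.67, limma adjusted p of 0.158 and 0.584).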

How the data were processed

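Libraries kept strand, and reads were aligned by the authors to GRCm38. Per the labels, the submitters' processing notes name CASAVA (1.8), TopHat2 (2.0.9), Cufflinks (2.1.1) and Cuffdiff (2.1.1). The deposited table holds FPKM per transcript and sample from Cuffdiff. The scaling between libraries and the annotation release are not given in the sources used here, and read counts were not used here. Transcripts were matched to GENCODE M21 (404 Ensembl transcripts were not matched) and summed per gene. Fragments per sample were inferred from step sizes among low values of single-transcript genes (1000 to 4000 nt), with 92.4 to 93.8% of values within 0.1 of a whole number against 20% by chance, and fragment numbers carry counting error only.

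Age groups were tested with limma 3.58.1 in R 4.3.3 (lmFit, eBayes with trend, two-sided) on log2(FPKM + 0.1), which understates changes of low genes, for genes with a mean of at least 0.1 FPKM. The Benjamini-Hochberg adjustment ran over all genes tested, and the threshold was 0.05. Cuffdiff, the test of the study, needs reads. The code was tested on simulated data. Plots used Python 3.11.15 and matplotlib 3.10.9. The members, the lists and the tests were chosen with earlier results of these data known. Named are all members, the more abundant genes of each list past the threshold, the most abundant of each list, a few fixed regulators and proteasome genes, and the 5 genes most like the members. Genes of chromosome 17 and of the interferon element outside the lists were named after their values were seen. The alternatives varied the pseudocount, the filter, the scaling, the trend, sample weights, a block for the replicate number, the transcript used and each sample left out. Values of 1 listed regulator are not reported here.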

Additional observations from a re-analysis of the deposited data

How the results depend on the processing

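All 10 members kept a positive change under every alternative run, and H2-K1, H2-D1, H2-Q4, H2-T23 and Tap2 passed the threshold in all 17 settings, the reported one included. Of 10 members, 5 passed with no variance trend, and between 6 and 10 with each sample left out. Of the other pathway genes, 3 passed as higher with no trend, and between 1 and 14 with each sample left out. With quantile normalization 1 pathway gene, Hspa5, passed as lower, and with the most abundant transcript of each gene 1, Creb1, did. Of the member transcripts, 0 passed with no filter, where more transcripts are tested, and between 0 and 4 with each sample left out. The cause of the other differences was not tested. Samples with the same replicate number did not deviate together (r = 0.0230, -0.0406 and 0.0109 for numbers 1, 2 and 3, and young replicate 1 correlated best with old replicate 2). Whether samples of the same number were prepared together was not tested. With a replicate block 8 members (without Tap1 and Tapbp), 6 other pathway genes and 0 member transcripts passed. With this block the difference of the log2 ratio of heavy chains to B2m had an exact p of 0.25 (two-sided sign-flip test). That is the lowest p this test can give with 3 pairs, so it cannot pass the threshold. With each sample left out, with the classical chains alone and with protein-coding transcripts alone, the difference of the log2 ratio was between 0.48 and 0.56, and with quantile normalization, an alternative chosen after seeing the data, it was 0.60. Other settings were not run for it. The number of genes called over the whole table varied as well, from 1099 higher and 741 lower as reported to between 46 and 949 higher and between 16 and 822 lower with each sample left out, to 284 and 126 with no trend, to 440 and 290 with the replicate block, and to 754 and 398 with no filter. Scaling moved the median of all genes by less than 0.1, from 0.01 to -0.02 with quantile normalization, where the median of the members was 1.37.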
